A study of Arabidopsis thaliana with 4 samples.

Results

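Class III peroxidases are the plant-specific, haem-containing peroxidases that cells secrete to the wall and the vacuole. The genes described here were chosen by locus code, from a list of 60 genes of this family. The array's public annotation names a probe set for 43 of the 60, and these 43, out of 11365 loci named on the array, are the genes measured here. The other 17, among them RCI3, PRXCA, PRXCB, PER4, PA2 and PER64, have no named probe set and were not analysed here. Each of the 43 has 1 probe set, so no choice between probe sets had to be made.

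The samples were shoots of wild-type Col-0 Arabidopsis thaliana seedlings. The plants grew without microbes on upright plates of MS medium for 14 days in 24 h light. ABA shoots came from seedlings submerged for 5 min in 100 uM abscisic acid (ABA) with MS basal salts and 0.1% Tween 20, a detergent. Mock shoots came from seedlings given the mock solution, which the labels describe as MS with Tween and no ABA. Both were returned to the chamber and collected 4 h later. There were 2 arrays per treatment, 4 in all, each from a separate pool of 20 to 24 shoots cut from their roots.

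In the wall these enzymes use hydrogen peroxide to oxidise phenolic compounds, which joins monolignols into lignin and links extensins and other wall polymers, making the wall stiffer. The same enzymes can also produce reactive oxygen species, which can loosen the wall. ABA is the plant hormone of drought and seed maturation, and it limits growth. The family is large, and many of its genes are known to be active mainly in roots, vessels, flowers or seeds.

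Values are intensities on the linear scale on which they were deposited, after a background subtraction that left some values below 0. A gene was taken as expressed in shoots if its mean over the 4 arrays lay above 8.76, the highest noise level of the arrays. The noise level of an array is the size of the 1st percentile of its tested probe sets. By this rule 17 of the 43 genes were expressed and 26 were near background. The genes just inside the limit were AT2G18980, with a mean of 9.04, and AT1G68850, with 9.51, and those just outside were PRX52, with 7.55, and AT1G49570, with 7.48. Brightness depends on the probes as well as on the transcript, so the order of intensities between genes is not an order of transcript levels. In pools of whole shoots, fewer cells of a type and less RNA per cell cannot be told apart.

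Changes are differences of log2(intensity + 16), ABA minus mock, with values below 0 set to 0, tested by limma across all 19371 tested probe sets. Benjamini-Hochberg adjusted p-values are over all of these, and the threshold is 0.05. The median intensity of tested probe sets differed between treatments (ABA arrays 12.4 and 12.9, mock arrays 16.9 and 17.0), and the deposited scaling was kept. Changes after quantile normalization, which gives every array the same distribution, are therefore printed beside the calls.

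After ABA, 6 of the 43 peroxidase genes were lower and 0 were higher. Of the 17 expressed genes, AT5G40150, AT3G32980 and AT3G21770 fell, to 42.1%, 58.4% and 67.9% of the mock mean intensity. Of the 26 genes near background, AT4G30170, AT1G05240 and AT1G30870 were called lower, the first pair from just above the noise level to below it. AT1G30870 was below the noise level on each array, so its call carries no weight as a change in transcript. PRXR1, the one family member with a very bright probe set, was at 91.4% of its mock mean and did not pass the test. AT5G40150 and 2 of the near-background genes, AT4G30170 and AT1G30870, also passed after quantile normalization, and the other 3 genes did not.

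These counts stand beside an array on which 19.6% of all tested probe sets were called lower and 3.97% higher. Among the 11462 expressed probe sets 30.9% were lower and 5.46% higher, so 3 lower of 17 is no larger a share than that of the array as a whole. Among the 7909 probe sets near background 3.39% were lower and 1.81% higher, against 3 lower of 26 genes here. At an unadjusted limma p under 0.05, 13 of the 43 genes were lower and 0 higher, against 33.3% and 7.19% of all tested probe sets. After quantile normalization the calls were 1 lower of 17 and 2 lower of 26, with 7.97% and 1.23% of the tested probe sets of each class called lower, 6.92% and 1.25% called higher, and 0 of the 43 genes higher. At an unadjusted limma p under 0.05 after quantile normalization, 7 genes were lower and 3 higher, against 18.1% and 13.3% of all tested probe sets. Leaving out 1 array left a treatment with 1 array, so those fits cannot decide a call. The log2 changes of the 6 genes called lower stayed below 0 whichever array was left out.

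The expressed genes had a median log2 change of -0.42, against -0.31 for all expressed probe sets, and after quantile normalization -0.12 against -0.063. The genes near background had a median of -0.11, against 0 for all probe sets near background. After quantile normalization this median was -0.072 against 0, and after median centring 0.087 against 0.20. In 12 of the 17 expressed genes both ABA arrays lay below both mock arrays, as they did for 67.6% of all expressed probe sets. In 2 of the 17 both lay above, against 13.8%. Near background the counts were 13 of 26 below, against 26.4% of probe sets, and 2 above, against 16.8%. The genes near background were not matched for level to the other probe sets of that class. The lowest intensity was -4.26 among these genes and -50.9 among all tested probe sets. A difference between the 2 classes of genes was not tested, and the pseudocount of 16 holds the changes of dim genes close to 0.

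**Figure D1:**
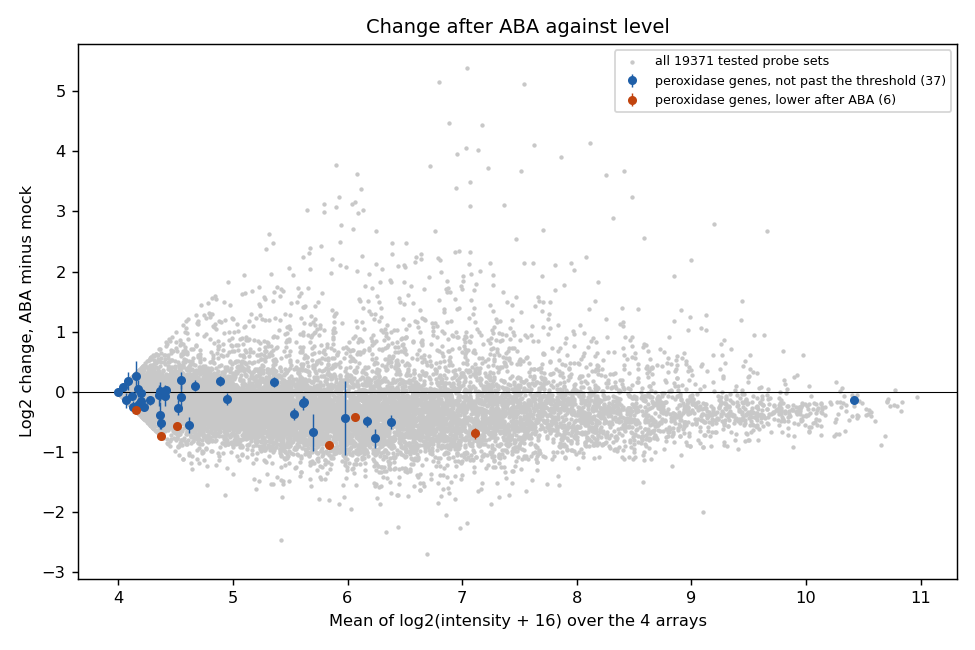
Log2 change after ABA (vertical, ABA minus mock) against the mean of log2(intensity + 16) over the 4 arrays (horizontal) for all 19371 tested probe sets (grey) and the 43 peroxidase genes (coloured, bars are 1 standard error). The 6 genes called lower lie between -0.89 and -0.30, and no peroxidase gene is past the threshold above 0.

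PRXR1 (AT4G21960) gave intensities of 1257 and 1328 after ABA and 1445 and 1384 in mock shoots. The ABA arrays lay below the mock arrays, with no overlap, but the gap was small. The log2 change was -0.13 (SE 0.046, limma adjusted p = 0.165), with a 95% interval from -0.28 to 0.025. The sign of this change turns with the scaling, at 0.13 after quantile normalization and 0.072 after median centring, and it passed as lower, at -0.60, only under spike scaling.

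Several genes that the reference table names beyond a locus code have known roles in the wall. PRX71 (AT5G64120), which is known to restrain cell expansion by stiffening the wall, read 23.1 and 27.1 after ABA and 67.8 and 35.2 in mock shoots. Its ABA arrays were both below its mock arrays, yet the 2 mock arrays lay farther apart than the lower of them lay from the ABA arrays. The log2 change was -0.67 (SE 0.31, limma adjusted p = 0.242) and did not pass. Its probe set is of a kind that can bind related transcripts.

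The others so named, apart from PRXR1, were near background. PRX52, of lignin formation in stems, read 9.86 and 3.82 after ABA and 11.3 and 5.20 in mock shoots, with overlapping groups. PRX72 (AT5G66390), also of lignin formation, read 2.02 and 0.759 after ABA and 3.41 and 3.25 in mock shoots, below the noise level on each array. PRX25 (AT2G41480), again of lignin formation, read 4.40 and 0.0387 after ABA and -4.26 and -3.20 in mock shoots. Prx37, which is known to reduce growth when overproduced, read between -2.71 and 4.85 on the 4 arrays. PER36 (AT3G50990), of seed coat mucilage release, read between 1.37 and 7.05. These levels do not allow a statement about a response of these 5 genes to ABA.

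The remaining expressed genes are known here by locus code alone. The largest fall was that of AT5G40150, at 27.5 and 24.8 after ABA and 62.6 and 61.5 in mock shoots. The groups lay far apart and both pairs of replicates were close together. The gene had a log2 change of -0.89 (SE 0.045, limma adjusted p = 0.0175), and after quantile normalization -0.59 (limma adjusted p = 0.0378).

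AT3G32980 read 85.4 and 101 after ABA and 157 and 162 in mock shoots. Each ABA array lay well below each mock array. This log2 change was -0.69 (SE 0.092, limma adjusted p = 0.0376), but after quantile normalization it was -0.43 and did not pass (limma adjusted p = 0.0923).

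AT3G21770 read 43.6 and 40.2 after ABA and 59.7 and 63.6 in mock shoots, again without overlap. The log2 change was -0.42 (SE 0.051, limma adjusted p = 0.0331). Its call was lost under both scalings that balance the arrays, with a change of -0.12 after quantile normalization (limma adjusted p = 0.363) and -0.22 after median centring (limma adjusted p = 0.0848).

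A group of 4 further expressed genes had lower values on both ABA arrays, with changes of about the same size, and did not pass. AT3G28200 read 35.1 and 49.1 after ABA and 77.5 and 88.2 in mock shoots, a log2 change of -0.78 (SE 0.16, limma adjusted p = 0.0710) and thus larger than those of AT3G32980 and AT3G21770. AT2G38380 read 60.5 and 48.6 after ABA and 79.5 and 87.0 in mock shoots (-0.50, SE 0.12, limma adjusted p = 0.0838). On the log2 scale the ABA replicates of both genes lay farther apart than those of the genes that fell, and the standard errors are larger.

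AT5G51890 read 44.1 and 45.7 after ABA and 75.8 and 63.4 in mock shoots (log2 change -0.49, SE 0.092, limma adjusted p = 0.0599). AT2G18980 read 2.17 and 6.60 after ABA and 14.2 and 13.2 in mock shoots (-0.55, SE 0.14, limma adjusted p = 0.0921). AT2G18980 counts as expressed only through its mock arrays, because both ABA values lie below the noise level. When the dimmest 40% of probe sets were left out before the fit, these 4 genes, PRX71 and AT5G58390 passed as well, which made 9 of 17 lower, against 50.3% of expressed probe sets.

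In AT4G37520 the replicates differed more than the treatments. It read 51.4 and 27.6 after ABA and 99.7 and 30.4 in mock shoots, so replicate 1 was the higher array in both groups and the groups overlap. The log2 change of -0.43 has an SE of 0.62 (limma adjusted p = 0.688), and without mock replicate 1 it was 0.22.

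The last 7 expressed genes showed smaller differences, and 0 of them passed. AT2G18150 read 27.7 and 33.5 after ABA and 38.4 and 33.9 in mock shoots (log2 change -0.16, limma adjusted p = 0.332), with a change of 0.12 after quantile normalization. AT4G36430 had a change of -0.18 and AT5G58390 one of -0.38, both with the ABA arrays below the mock arrays, and AT4G33420 had a change of -0.12 with overlapping groups.

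Changes above 0 were measured in 3 expressed genes. AT2G22420 read 30.1 and 24.6 after ABA and 22.9 and 22.6 in mock shoots (log2 change 0.16, limma adjusted p = 0.274). AT4G26010 read 13.6 and 17.5 after ABA and 12.3 and 11.2 in mock shoots (0.18, limma adjusted p = 0.231). In both genes the ABA arrays lay above the mock arrays, and all 3 changes turn below 0 under spike scaling. AT1G68850 had a change of 0.10 with overlapping groups.

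**Figure D2:**
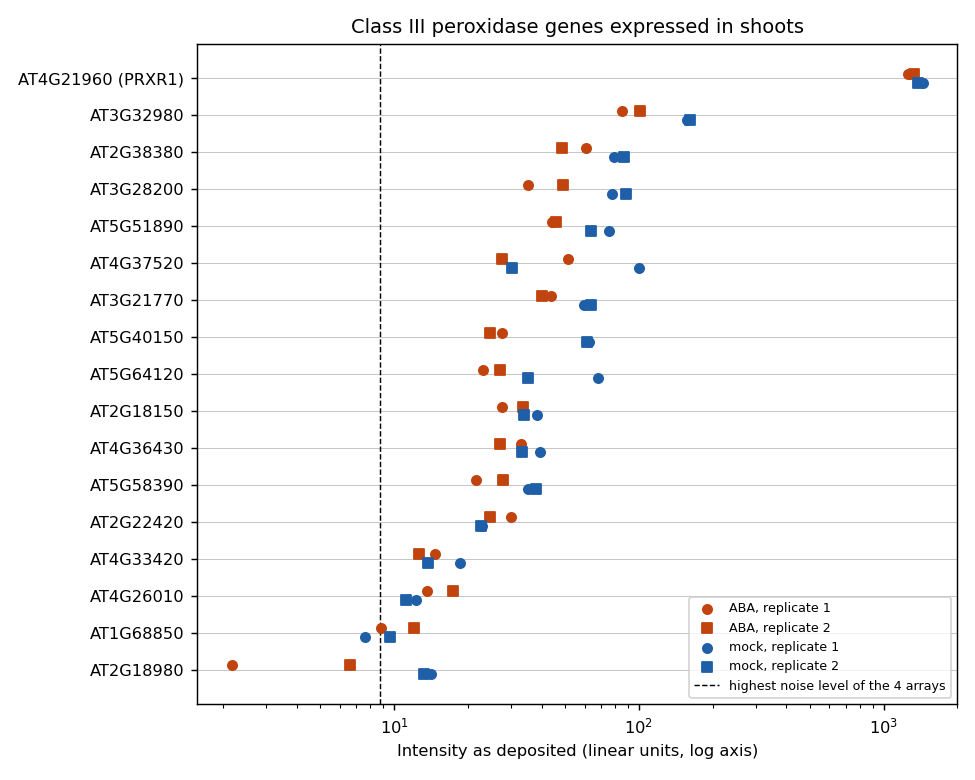
Deposited intensity (horizontal, log axis) of the 17 expressed peroxidase genes (rows, ordered by mean) on each of the 4 arrays, ABA in red and mock in blue, circles for replicate 1 and squares for replicate 2, with the highest noise level (8.76) dashed. AT5G40150 shows the widest gap between treatments among the genes that fell, and AT4G37520 and AT5G64120 show replicates far apart.

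Each other scaling between arrays moved all 17 expressed genes one way, up after quantile normalization and median centring and down under spike scaling, and so changed the count. After median centring, 3 of the 17 expressed genes were lower, AT5G40150, AT3G32980 and AT3G28200, against 20.6% of expressed probe sets. One gene, AT4G26010, was then higher (log2 change 0.38, limma adjusted p = 0.0407), against 11.1% of expressed probe sets. When each array was instead divided by a factor from 9 spiked control sets, 10 of 17 were lower, against 64.1% of expressed probe sets. AT5G40150, AT3G32980 and AT3G28200 had changes of -0.43 or lower under all 4 scalings.

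**Figure D3:**
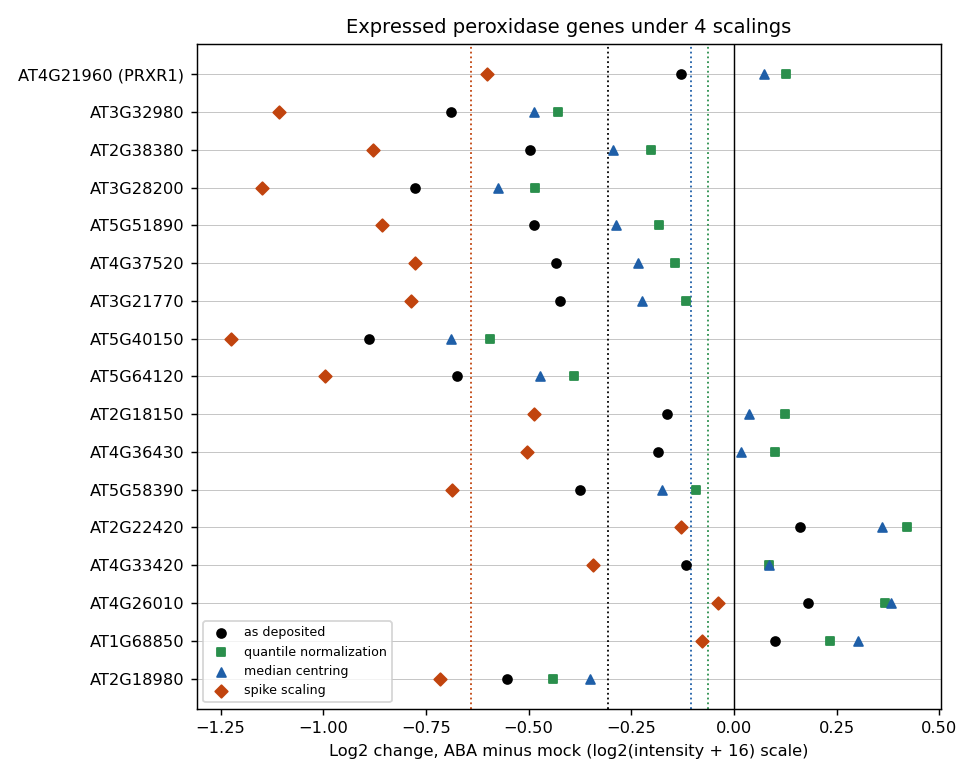
Log2 change after ABA (horizontal, ABA minus mock) of the 17 expressed peroxidase genes (rows) as deposited and under 3 other scalings between arrays, with the median of all 11462 expressed probe sets dotted in the colour of each scaling. AT5G40150 lies lowest under each scaling, and PRXR1, AT2G18150, AT4G36430 and AT4G33420 lie on either side of 0 depending on the scaling.

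Of the 26 genes near background, 19 were below the noise level on each array and 7 were above it on at least 1. AT4G30170 read -1.90 and -2.38 after ABA and 10.5 and 11.0 in mock shoots. Its mock arrays were above the noise level and its ABA arrays below 0. The log2 change was -0.74 (SE 0.021, limma adjusted p = 0.0166), and after quantile normalization it passed at -0.68. Its size depends on the constant added, as it was -3.56 with 1 and -0.22 with 64. Both ABA values were set to 0 before the fit, so the ABA replicates showed no spread there. The small SE and p-value rest in part on that floor.

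AT1G05240 read 3.63 and 1.82 after ABA and 11.3 and 12.2 in mock shoots, so it too left the measurable range after ABA. Its log2 change was -0.57 (SE 0.065, limma adjusted p = 0.0316), and the call was lost after quantile normalization (-0.47, limma adjusted p = 0.0660). Its neighbour in the genome is AT1G05250, another family member with no named probe set, and signal from close relatives on this probe set was not tested.

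AT1G30870 read -1.34 and -1.85 after ABA and 3.14 and 4.35 in mock shoots. Its log2 change of -0.30 passed (limma adjusted p = 0.0391), also after quantile normalization. Both ABA values were again set to 0 before the fit, which removed their spread. All 4 values lie below the noise level, so the call carries no weight as a change in transcript.

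The other genes near background included some with lower ABA values that did not pass. AT2G34060 read 1.24 and 1.42 after ABA and 7.21 and 10.7 in mock shoots (log2 change -0.52, limma adjusted p = 0.0511). AT1G44970 read 3.49 and 6.45 after ABA and 7.43 and 10.9 in mock shoots (-0.26), and AT4G11290 read 2.82 and 1.16 after ABA and 3.77 and 12.1 in mock shoots (-0.39). In these 3 genes the groups did not overlap, but at most 1 of the 4 arrays was above its noise level. AT1G49570 read 9.62 and 8.29 after ABA and 8.40 and 3.62 in mock shoots, with overlap.

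The 19 genes that stayed below the noise level had ABA values from -3.25 to 7.95 and mock values from -4.26 to 7.34. They include AT1G14550, AT2G43480, AT5G15180, AT5G19890, AT5G39580, AT2G35380 and AT2G37130, each with all 4 values above 0. AT5G14130, AT3G03670, AT3G01190, AT3G49960, AT5G17820, AT5G06730 and AT5G19880 complete the list with the genes given above. In the TAIR10.1 gene order 9 of the 43 genes lie beside another of the 60 listed genes. Of these neighbours, AT5G19880 and AT5G19890 are the only ones that both have a named probe set. Of the 19 genes only AT1G30870, described above, was called. Among the rest AT5G39580 came closest to a call, at 1.39 and 0.766 after ABA and 4.96 and 3.85 in mock shoots (log2 change -0.26, limma adjusted p = 0.0520).

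**Figure D4:**
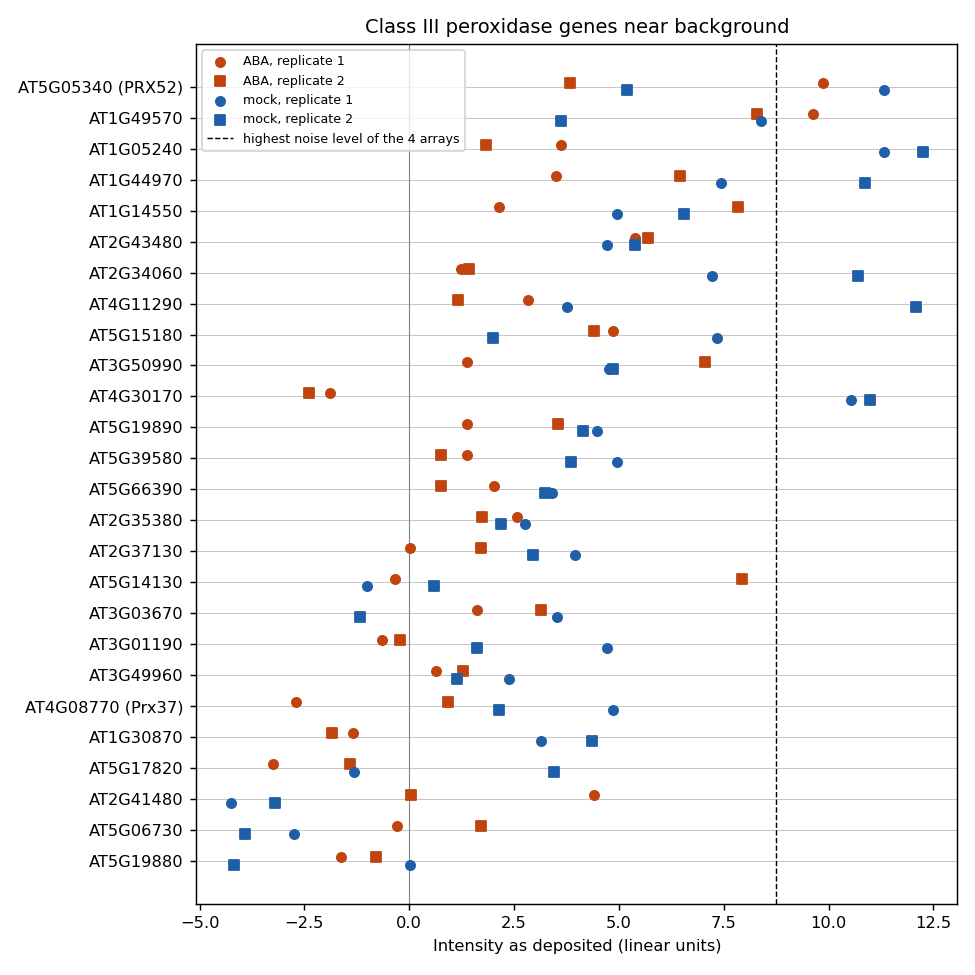
Deposited intensity (horizontal, linear axis) of the 26 peroxidase genes near background (rows, ordered by mean) on each array, ABA in red and mock in blue, circles for replicate 1 and squares for replicate 2, with the highest noise level (8.76) dashed and 0 in grey. AT1G05240 and AT4G30170 have both mock arrays to the right of the dashed line and both ABA arrays to its left.

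Root tissue left in the pools would carry root peroxidase transcripts. Of 14 root marker genes, 2 are named on the array. PYK10, which encodes the main beta-glucosidase of root ER bodies, read 104 and 120 after ABA and 320 and 280 in mock shoots. It fell (log2 change -1.30, limma adjusted p = 0.0236), also after quantile normalization (-1.05, limma adjusted p = 0.0465). EXPA7, a root hair expansin gene, read at most 1.75 on each array, below the noise level, and was called higher (log2 change 0.12, limma adjusted p = 0.0491). Of 10 shoot markers 4 are named, and all are bright, with means from 320 to 2109. All 4 were lower after ABA, from -1.05 for LHCB4.3 to -0.37 for LHCB4.1. Of all probe sets with a mean of 32 or more, 36.7% were lower. After quantile normalization RCA alone passed, against 10.3% of those probe sets lower. The probe sets of RCA, LHCB4.1 and LHCB4.2 are of a kind that can bind related transcripts. The call for EXPA7 carries no weight as a change in transcript, so PYK10 is the only root marker measured above the noise level. The part of root tissue in these results was not tested.

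The genes that act with these enzymes are sparsely named on the array. Of 27 monolignol synthesis genes 3 are named, 1 rose and 0 fell, on an array with 3.97% of all tested probe sets higher and 19.6% lower. CCR2, a cinnamoyl-CoA reductase gene linked to defence, read 13.5 and 16.8 after ABA and 1.03 and 2.24 in mock shoots (log2 change 0.82, SE 0.080, limma adjusted p = 0.0266), and it also passed after quantile normalization, at 0.95. Its mock level lay within the noise.

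HCT, a transferase of the lignin pathway, had a log2 change of -0.58 (limma adjusted p = 0.0562) and CYP84A4, a P450 of the ferulate hydroxylase family known for arabidopyrone synthesis, one of 0.62 (limma adjusted p = 0.0741). None of 17 laccase genes, which also oxidise monolignols, and none of 7 Casparian strip genes has a named probe set. The list medians rest on few genes. That of the 3 monolignol genes, 0.62 against -0.13 for all tested probe sets, is the value of CYP84A4. CYP84A4 and CCR2 were both near background, and HCT, the only expressed gene of the 3, had a change below 0.

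Of 18 extensin and extensin-like genes, whose products the peroxidases cross-link, 7 are named, 2 fell and 0 rose, with a median change of -0.16, on an array with 19.6% of all tested probe sets lower. AT2G43150 read 247 and 260 after ABA and 330 and 326 in mock shoots (log2 change -0.35, SE 0.036, limma adjusted p = 0.0285), but did not pass after quantile normalization (-0.12). AT1G23720 read 0.146 and 0.512 after ABA and 8.19 and 10.3 in mock shoots (-0.63, SE 0.057, limma adjusted p = 0.0248) and also passed after quantile normalization. As with AT4G30170, its ABA values lie within the noise, so only a loss of a weak signal was measured.

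On the supply and removal of hydrogen peroxide, 3 of 10 NADPH oxidase genes are named, all were near background, and none passed, with changes from -0.024 to 0.032. Of 26 genes of intracellular peroxide and superoxide removal 2 are named and neither passed. TAPX, the thylakoid ascorbate peroxidase gene, read 204 and 228 after ABA and 289 and 321 in mock shoots (log2 change -0.47, limma adjusted p = 0.0607), and SAPX, the stromal one, had a change of 0.097.

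Both transcription factor genes known to repress class III peroxidase genes are named. UPB1, which acts in roots, read at most 5.93 on each array. KUA1 (AT5G47390), which acts in growing leaves, read 67.4 and 67.9 after ABA and 70.1 and 69.6 in mock shoots, a log2 change of -0.037 (SE 0.018, limma adjusted p = 0.268). The near constant signal of KUA1 on the deposited scale becomes a rise of 0.26 after quantile normalization (limma adjusted p = 0.0317), so its direction depends on the scaling.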

How the data were processed

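The authors deposited processed, linear intensities, with 1 value for each probe set on each array. Per the labels' protocols, total RNA was amplified, labelled with biotin and hybridised to 1-colour arrays. The sources used here do not state how these were background-corrected and scaled, or with what software. The number of arrays, 2 a treatment, limits the precision.

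The table holds 19658 probe sets, from which 287 control sets were removed. Loci came from the array's public annotation through gene identifiers of the TAIR10.1 assembly. Its build relative to the array is not given, so no coordinates are printed, and sequences were not used here. Values were floored at 0 and transformed as log2(intensity + 16). limma 3.58.1 in R 4.3.3 (lmFit, eBayes, two-sided) compared ABA with mock over all 19371 tested probe sets. The fit was also run on simulated data with 200 changed probe sets, all drawn from those with a mean intensity above 32. There it called 61% of probe sets changed by 1 on the log2 scale and 96% of those changed by 2. On the deposited scale the peroxidase genes had smaller changes, from -0.89 to 0.26, and only 11 of the 43 had a mean of 32 or more. The simulated percentages therefore do not tell how often changes of these genes would be called. Alternatives were constants of 1 and 64, 3 scalings, a filter at the 40th percentile, a variance trend, a replicate block and leaving out each array.

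The members, gene lists and settings were chosen with earlier results of these data known. By the naming rule, all 4 values are given for genes past the threshold, the 10 brightest, and expressed genes without overlap and a change of at least 0.5. The rule also takes up to 4 called members of each list. Further genes were named, many of them with all 4 values, after their values were seen.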

Additional observations from a re-analysis of the deposited data

How the results depend on the processing

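With all 43 genes, 6 were lower and 0 higher. Lower genes numbered 3 after quantile normalization, 5 after median centring, which also gave 1 higher (an expressed gene), 16 under spike scaling and 8 with a variance trend, while constants of 1 and 64 gave 6 each. Of the 17 expressed genes 3 were lower, against 1 with quantile normalization, 3 with median centring and 10 with spike scaling. The filter for the 40th percentile gave 9. It tests fewer probe sets, and limma was fitted anew to those, so the unadjusted p-values changed as well. Expressed genes taken from a mean of 16 or 32 upward gave 3, as in the main fit. Leaving out 1 array left 1 array in a treatment, too few to decide a call, so only effect sizes are given for those fits. The median change of expressed genes, -0.42, was -0.55 with a constant of 1, -0.18 with 64, -0.12 with quantile normalization, -0.22 with median centring and -0.72 with spike scaling, and -0.39 to -0.32 with 1 array left out. Among genes given with all 4 values by the naming rule, signs turned for PRXR1 (0.13 after quantile normalization, 0.072 after median centring), for AT2G18150 (0.12 and 0.037) and for AT4G37520 when 1 array was left out (-1.09 to 0.22, the latter without mock replicate 1). Of the other expressed genes, AT4G36430 (0.10 and 0.016) and AT4G33420 (0.086 and 0.085) turned likewise, and AT2G22420, AT4G26010 and AT1G68850 turned below 0 with spike scaling (-0.13, -0.038 and -0.079). With the replicate number as a block, 1 residual degree of freedom remained and 0 genes were lower, all or expressed, with 13 lower at an unadjusted limma p under 0.05. The labels give no reason to pair the numbers, and the differences between replicates correlated at 0.039 between the groups, across probe sets. Averaging several probe sets of a gene could not change a value, because each gene has 1. Of the 26 genes near background 19 lie within the noise on each array, so a missing call there shows no lack of change.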
